A study of Mus musculus with 24 samples.

Results

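The loss of MLL4 was measured in formative mouse embryonic stem cells that already lacked MLL3. Formative cells of genotype MLL3KO_MLL4KO (called knockout cells here) were set against formative cells of genotype MLL3KO_MLL4fl (called floxed cells, reading fl as a conditional allele that is still present). These are 6 of the 24 samples of the series, 3 per group, and the comparison ran across all 16617 genes of the deposited table. Both groups carry the MLL3 knockout, and both were collected 63 h after LIF and the 2 inhibitors (LIF2i) had been withdrawn. The other groups used below are naive cells of the same genotypes, kept in LIF2i, and formative wild-type and MLL3CD_MLL4CD (catalytic-dead) cells of line R1. No source used here names the parental line of the floxed and knockout cells. Each genotype was 1 cell line, so a difference between genotypes and a difference between lines cannot be told apart. The 3 biological replicates of a group were grown, harvested and prepared independently, per the series' design text, so the tests measure the spread between cultures of 1 line.

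The proteins MLL3 (gene Kmt2c) and MLL4 (gene Kmt2d) are large histone methyltransferases that place a single methyl group on lysine 4 of histone H3 at enhancers, in complexes that also bring other coactivators there. Formative cells are an intermediate between the naive state, which LIF and the inhibitors maintain, and the states that are primed for germ layers. On leaving the naive state they silence naive transcription factors and switch on genes such as Fgf5, Otx2, Pou3f1 and Dnmt3b, many of them through newly active enhancers.

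The measurement was 3' tag RNA sequencing, which counts 1 tag near the end of a polyadenylated transcript, in CPM (a gene's counts scaled to library size). The deposited table gives 1 mean of log2 CPM per group, and the whole counts of each library were recovered from these means for genes of low and moderate level. Of the 4 libraries behind the formative knockout column, 1 also entered the formative catalytic-dead column. This shared library correlated with the other catalytic-dead libraries at r = 0.923 to 0.949 and with the knockout libraries at 0.819 to 0.836 (across 9951 genes, which are not independent replicates), and it was left out of the knockout group. The remaining libraries are called a, b and c by falling depth, with 13095346, 11809585 and 10717398 counts in floxed and 9975146, 7005380 and 4808564 counts in knockout cells. Below, 3 CPM values of a group stand for its libraries a, b and c in that order. Knockout libraries were thus shallower than every floxed library, and low values in knockout cells rest on fewer counts. Correlations across 11555 genes were 0.917 to 0.933 within floxed, 0.915 to 0.927 within knockout and 0.846 to 0.868 between the groups.

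A gene rose or fell here only where its limma p, adjusted by Benjamini-Hochberg across the 11477 genes tested, was under 0.05. Differences are knockout minus floxed on the log2(CPM + prior) scale, which understates changes of low genes, and the error is the model's SE. Another 5140 genes, mostly abundant ones, have group means but no library values. Their differences are given without a test, as deposited means corrected for the shared library, a correction with a median error of 0.034 log2. As these are bulk samples, fewer cells of a type and less RNA per cell cannot be told apart. A call named below that was lost when 1 library was left out is followed by that library and its adjusted p.

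The targeted genes were examined first. Kmt2d (MLL4, chromosome 15, 98831669 to 98871204 of GRCm38) stood at 27.1, 27.5 and 21.6 CPM in floxed and 24.4, 17.8 and 18.3 CPM in knockout cells, a difference of -0.34 log2 (SE 0.19, adjusted p = 0.231) with overlapping groups. Kmt2c (MLL3, chromosome 5, 25271798 to 25498783) stood at 19.9, 24 and 14.5 CPM in floxed and 12.9, 16.8 and 17.1 CPM in knockout cells, a difference of -0.29 log2 (SE 0.28, adjusted p = 0.529). Tags from the transcript's end do not test a deletion further upstream, so these values check neither allele.

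In formative cells 1344 genes rose (11.7% of those tested) and 813 fell (7.08%), so that 62.3% of the calls were higher in knockout cells. These shares of all tested genes are the background for every list count below. The rise was 2-fold or more for 806 genes and 8-fold or more for 80, and the fall reached 2-fold for 599 and 8-fold for 26. Library values did not overlap between the groups for 1286 of the 1344 and for 770 of the 813. Genes past the threshold are mostly apart by selection, so these counts are no separate support. Genes that rose had a median floxed level of 5.68 CPM, and 271 of them (20.2%) were under 1 CPM in floxed cells, close to the 21.9% of all tested genes. The untested genes split the same way in number, with 184 higher and 119 lower by 2-fold or more. The median over all genes was 0.07 log2, near 0. The number of falls dropped to 530 without knockout library a and 533 without knockout library b, while 1008 to 1124 rises were left in the fits without 1 library. Keeping the shared library in the knockout group left 729 rises and 484 falls. Scaling with size factors gave 1123 rises and 925 falls, so the size of the excess of rises depends on the scaling.

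**Figure D1:**
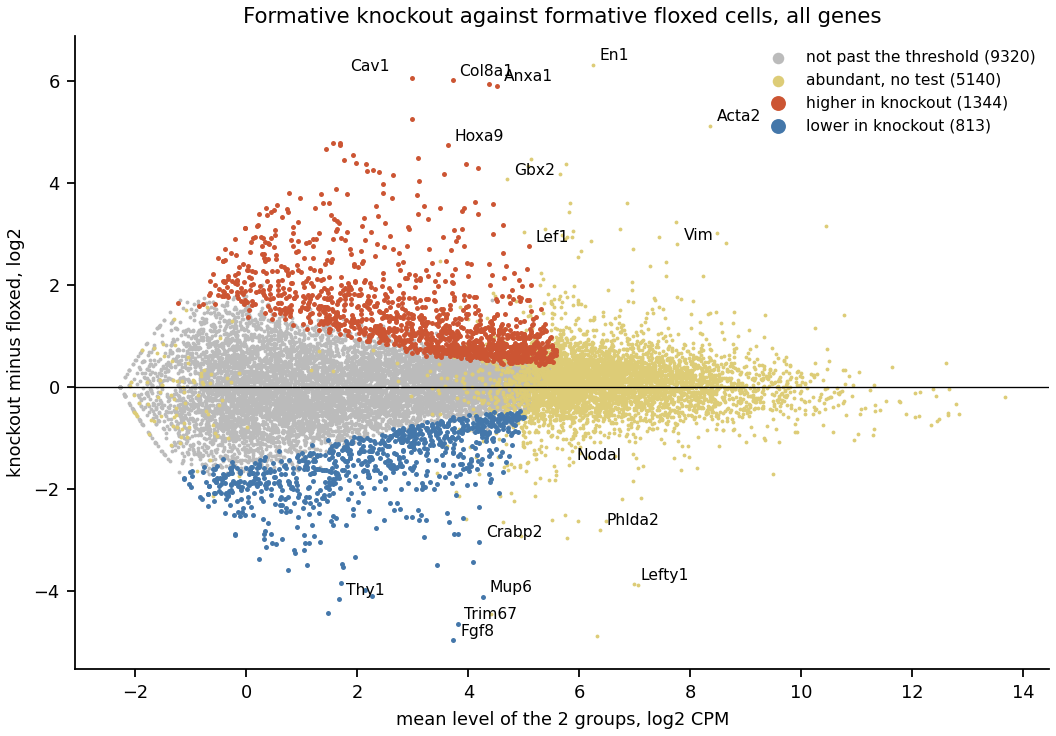
Each point is 1 of the 16617 genes, with the mean level of both groups (log2 CPM) on the x axis and knockout minus floxed (log2) on the y axis. Red points rose (1344), blue points fell (813), grey points did not pass the threshold and yellow points are the 5140 genes without a test, among them En1, Acta2 and Lefty1.

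The largest rises, among genes with a full name (Gm and Rik symbols and pseudogenes left out), were genes close to silent in floxed cells, several of them for matrix, membrane or cell-surface proteins. Cav1, which forms the coat of caveolae (chromosome 6, 17306335 to 17341452), was at 0, 0 and 0.0933 CPM in floxed and 12.2, 19 and 15.8 CPM in knockout cells. Its rise was 6.07 log2 (SE 0.38, adjusted p = 8.88e-14). Col8a1, a short-chain collagen (chromosome 16, 57624258 to 57754737), went from 0.153, 0.254 and 0.187 CPM to 26.7, 23.4 and 27.2 CPM, a rise of 6.02 log2 (SE 0.49, adjusted p = 1.66e-11). In both genes the lowest knockout library lay far above the highest floxed one. Ccn4, a secreted Wnt-responsive matrix protein, had 0.611, 0.0847 and 1.03 CPM in floxed and 38.9, 47.7 and 35.6 CPM in knockout libraries (rise of 5.94 log2, SE 0.46, adjusted p = 1.11e-11). Anxa1, a phospholipid-binding annexin, had 0.305, 0.762 and 0.653 CPM against 36.5, 66.8 and 37.2 CPM (rise of 5.91 log2, SE 0.55, adjusted p = 3.83e-10). Gdpd3, a lysophospholipase, and Upk1b, a tetraspanin of the bladder lining, had no count in any floxed library. Against a floor of 3 counts over the floxed group (0.0842 CPM) they were at least 65.3-fold (Gdpd3) and 60-fold (Upk1b) higher in knockout cells. The matrix glycoprotein Tnc (4.78 log2), the membrane protein Tm4sf1 (4.74), the testis-expressed Tex13b (5.26), the peptide hormone gene Uts2b (4.45) and the homeobox genes Hoxa9 (4.74) and Hoxb13 (4.5) completed the 12 largest. For 9 of these 12 the call held in each of the 6 fits that left out 1 library. Tm4sf1, Upk1b and Uts2b passed the filter on low values only through the knockout libraries, and their p does not allow for that selection. They held in the 3 fits without a floxed library and were not tested without a knockout library.

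**Figure D2:**
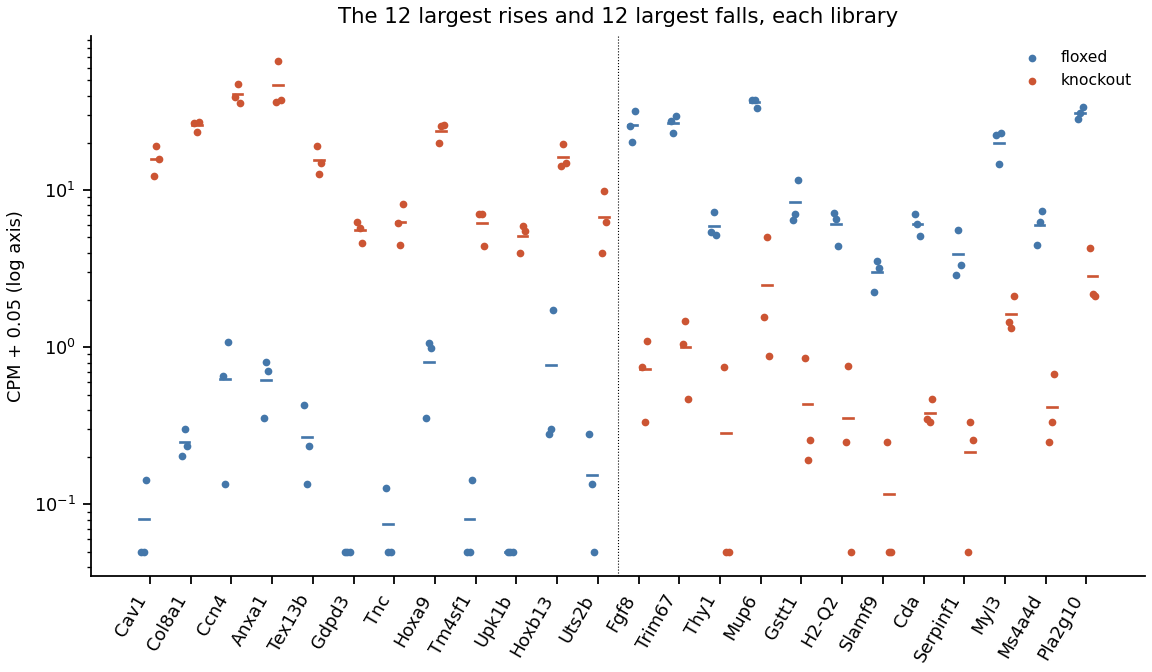
CPM plus 0.05 on a log axis in each library for the 12 largest rises (left of the dotted line) and the 12 largest falls (right), with floxed libraries in blue, knockout libraries in red and a short bar at each group's mean. No floxed point reaches a knockout point in any of the 24 genes, because only genes without overlap were eligible.

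The largest falls were led by Fgf8, an FGF ligand of the gastrulating embryo (chromosome 19, 45736798 to 45742915). It stood at 25.7, 20.2 and 32.1 CPM in floxed and 0.702, 0.285 and 1.04 CPM in knockout cells, and fell by 4.97 log2 (SE 0.47, adjusted p = 5.16e-10). Trim67, a ubiquitin ligase best known from neurons (chromosome 8, 124793092 to 124834713), fell by 4.65 log2 (SE 0.40, adjusted p = 9.21e-11), from 27.6, 23.2 and 29.6 CPM to 1, 1.43 and 0.416 CPM. Both are genes that wild-type cells switch on between the naive and formative states, by 6.08 log2 for Fgf8 and 5.17 log2 for Trim67. Thy1, a GPI-anchored surface protein, was at 5.35, 7.2 and 5.13 CPM in floxed cells and at 0.702, 0 and 0 CPM in knockout cells, a difference of -4.17 log2 (adjusted p = 4.85e-08). Mup6, a lipocalin from a family of near-identical genes among which reads can be split, had a difference of -4.12 log2 (adjusted p = 4.98e-11). Pla2g10, a secreted phospholipase, fell from 28.3, 31.0 and 33.8 CPM to 4.21, 2.14 and 2.08 CPM. The other falls of this rank were Gstt1 (-3.98 log2), H2-Q2 (-3.84), Slamf9 (-3.60), Cda (-3.53), Serpinf1 (-3.50), Myl3 (-3.49) and Ms4a4d (-3.47). H2-Q2 belongs to a family of close copies, which makes its value uncertain, and lies on chromosome 17, treated below. Each of these 12 calls also held without any 1 library.

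Among the abundant genes without a test, En1, a homeobox factor of the midbrain and limb, stood at 1.87 CPM in floxed and 149 CPM in knockout cells, 6.32 log2 apart. Acta2, smooth muscle actin, stood at 18.3 and 637 CPM (5.12 log2). The next differences were Emp1 (4.47 log2), Sohlh2, a germ cell factor (4.37), Cryab, a small heat shock protein (4.34), Rhox6 (4.18), Gbx2 (4.07) and Tcf15, a helix-loop-helix factor (3.61). In the other direction stood Calca, the calcitonin gene, with 40.5 and 1.84 CPM (-4.46 log2). Pmaip1, a p53-responsive BH3-only gene, stood at 248 and 16.9 CPM (-3.88 log2), and Lefty1, a secreted Nodal inhibitor, at 236 and 16.1 CPM (-3.87 log2). Gstt2 (-2.97 log2), Crb3 (-2.93), Phlda2 (-2.80) and Ank3 (-2.66) followed. These are single differences of group means, with no library values behind them.

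Promoter sequences are shown for 4 of these genes that had an entry in RefSeq's table (GRCm38.p6), to show what kind of start site they have. They were chosen after their values were seen. Each line is the 120 bases before the first listed start site, 5′ to 3′ on the gene's strand, in lower case, with the named motif in capitals on either strand. Anxa1 (chr19:20390672-20390791, minus strand) holds TATAAA starting 32 bases before the start. The other 3 hold GGGCGG or its reverse complement CCGCCC: Col8a1 (chr16:57754738-57754857, minus strand), Hoxa9 (chr6:52227371-52227490, minus strand) and Trim67 (chr8:124792899-124793018, plus strand).
Anxa1: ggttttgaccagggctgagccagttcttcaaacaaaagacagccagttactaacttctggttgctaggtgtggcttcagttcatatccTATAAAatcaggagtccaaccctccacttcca
Col8a1: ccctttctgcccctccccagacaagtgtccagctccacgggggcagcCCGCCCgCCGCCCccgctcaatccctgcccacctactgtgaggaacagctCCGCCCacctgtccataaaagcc
Hoxa9: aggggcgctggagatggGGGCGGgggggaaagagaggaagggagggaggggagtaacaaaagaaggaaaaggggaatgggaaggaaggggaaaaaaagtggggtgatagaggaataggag
Trim67: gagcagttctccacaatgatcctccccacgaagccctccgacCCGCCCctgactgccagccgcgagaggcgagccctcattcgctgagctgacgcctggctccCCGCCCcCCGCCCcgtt

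Trim67 has 21 CG dinucleotides in the 250 bases before its start, Col8a1 has 10, Hoxa9 has 3 and Anxa1 has 2. The same motifs were counted over all genes with a listed promoter, as a description. Searched on both strands of the 250 bases, TATAAA was in 8.51% of the promoters of 1022 genes that rose, 7.04% of 540 that fell, 6.83% of 5752 that did not pass and 13% of all 27025 promoters listed. GGGCGG was in 57.0%, 59.1%, 55.3% and 32.9% of them. The AP-1 type motif TGANTCA was in 4.6%, 4.81%, 4.66% and 6.87%. The median number of CG dinucleotides was 14 in genes that rose, 12 in genes that fell and 14 in those that did not pass.

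Markers of a pluripotent, formative culture were detected in both groups, though not all at similar levels. Of 14 shared pluripotency genes 13 were too abundant to be tested, and the list median was -0.09 log2. Levels of 3 of these 13 were lower in knockout cells by a factor of 2 or more. Only 1 was higher by such a factor. Sox2 stood at 93.9 CPM in floxed and 272 CPM in knockout cells and Sall4 at 119 and 222 CPM. Lin28a, an RNA-binding protein that blocks let-7 processing, stood at 448 and 254 CPM, and Tdgf1, the Nodal co-receptor Cripto, at 695 and 329 CPM. Pou5f1 was at 6.57, 10.2 and 5.69 CPM and 4.61, 6 and 5.61 CPM (adjusted p = 0.359). Formative markers stood higher rather than lower in knockout cells. Of 5 tested formative genes 4 rose and none fell, beside 11.7% and 7.08% of all genes, and the median of the 18 listed was 0.70 log2. Fgf5, the classical epiblast marker, was at 21.2, 20.4 and 18.8 CPM in floxed and 57.5, 61.0 and 57.0 CPM in knockout cells (rise of 1.53 log2, SE 0.16, adjusted p = 1.48e-08). Fgf15 rose by 1.68 log2 (adjusted p = 3.41e-08), from 13.5, 8.13 and 11.2 CPM to 33.0, 36.4 and 34.9 CPM. Lef1, the nuclear effector of Wnt signals, rose by 2.76 log2 (adjusted p = 1.11e-11), from 8.78, 6.27 and 11.3 CPM to 58.2, 52.2 and 67.2 CPM. The pluripotency factor Foxd3 rose by 1.29 log2 (adjusted p = 1.58e-05). In all 4 the groups were clearly apart. Untested members went both ways: Pou3f1 stood at 257 and 613 CPM and Otx2 at 91.8 and 154 CPM, while Sox3 stood at 46.9 and 9.94 CPM, Dnmt3a at 169 and 85.9 CPM and Dnmt3b at 1041 and 691 CPM.

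Naive pluripotency genes showed few calls, with 1 rise and 1 fall among 8 tested of 20. Nr0b1, a nuclear receptor of the naive network, was at 1.68, 4.15 and 2.15 CPM in floxed and 9.42, 12.3 and 13.3 CPM in knockout cells (rise of 2.13 log2, adjusted p = 9.67e-05). Dppa3, a maternal and germ cell factor, fell by 1.71 log2 (adjusted p = 4.13e-05), from 12.7, 13.1 and 12.1 CPM to 3.31, 5 and 3.12 CPM. Without floxed library b the list had 2 rises. Of the untested members Gbx2 stood at 2.91 and 48.9 CPM, Esrrb at 34.0 and 61.5 CPM, Zfp42 at 34.0 and 67.2 CPM, Nanog at 176 and 140 CPM and Tfcp2l1 at 101 and 88.7 CPM.

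Genes that the wild-type line changes between the naive and formative states were sorted by that change, which uses no library of the floxed and knockout groups and rests on 3 formative and 2 naive wild-type libraries. Of 2212 tested genes that wild-type cells induced, 344 rose in formative knockout cells (15.6%) and 340 fell (15.4%). Of 1413 that wild-type cells repressed, 203 rose (14.4%) and 69 fell (4.88%). Of 7657 that wild-type cells did not change past the threshold, 9.82% rose and 5.12% fell. The medians were -0.05, 0.13 and 0.06 log2, or -0.12, 0.06 and -0.01 log2 when scaled with size factors, so that the sign of the last depends on the scaling. The more strongly a gene was induced in wild-type cells, the larger the share that fell: of 323 tested genes induced by at least 3 log2, 90 fell and 53 rose, with a median of -0.27 log2. Of 977 induced by at least 2 log2, 205 fell and 162 rose. Fgf8, Trim67 and Fgfr3 (below) are among the induced genes that fell, and Lef1 is among those that rose. Fgf5 and Fgf15, without a test in wild-type cells, stood 6.09 and 5.27 log2 higher there in the formative state.

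Nodal pathway genes stood in both directions. The ligand Nodal, an inducer of mesoderm and endoderm, stood at 83.9 CPM in floxed and 29.0 CPM in knockout cells (-1.53 log2, untested). Its inhibitor and target Lefty1 is given above, and Lefty2 stood at 89.0 and 45.4 CPM. In the opposite direction the related ligand Gdf3 stood at 83.3 and 176 CPM. Inhba, the activin A subunit, rose by 3.03 log2 (SE 0.39, adjusted p = 3.94e-07), from 0.916, 0.677 and 0.933 CPM to 8.32, 6.71 and 10.2 CPM, though not with the shared library kept (adjusted p = 0.114). Inhba passed the filter only through the 3 knockout libraries, where it is high, and its p does not allow for that selection. It was not tested in the 3 fits without a knockout library. Of 10 tested members 2 rose and none fell. The second, the signal transducer Smad2, had a difference of 0.56 log2 (adjusted p = 0.0222), and its call was lost without floxed library b (adjusted p = 0.064), floxed c (0.0608), knockout b (0.0624) or knockout c (0.0659). The list's rises were 1 of 10 tested without floxed b or floxed c, 1 of 9 without knockout a or knockout c, 0 of 9 without knockout b and 0 with the shared library kept. The 1 rise without knockout c was the receptor Tgfbr1 (adjusted p = 0.0405), which passed in no other fit that left out a library. When scaled with size factors the list had 1 rise and 1 fall, Smad3 (-0.54 log2, adjusted p = 0.0455).

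BMP pathway genes stood higher in knockout cells, with 5 rises and no fall among 13 tested, beside 11.7% and 7.08% of all tested genes. The list median was 0.94 log2 over 18 in the table. The ligand Bmp4 rose by 1.80 log2 (SE 0.36, adjusted p = 4.20e-04), from 1.37, 1.52 and 2.15 CPM to 6.72, 4.71 and 7.69 CPM. Fst, a secreted antagonist of activins and BMPs, rose by 2.43 log2 (adjusted p = 2.74e-06), from 3.97, 6.77 and 3.92 CPM to 19.3, 37.1 and 25.6 CPM. Bmp2 rose by 2.30 log2 (adjusted p = 0.00518, and 0.21 with the shared library kept). Their common target genes Id1, Id2 and Id3, inhibitors of helix-loop-helix factors, were untested and stood at 105 and 269, 109 and 492, and 32.9 and 216 CPM in floxed and knockout cells. The call of the receptor gene Bmpr1b (1.51 log2) was lost without floxed library a (adjusted p = 0.0606), b (0.241) or c (0.0532) and without knockout a (0.0823) or b (0.173). That of the target gene Msx2 (1.74 log2) was lost without floxed a (0.0997), floxed b (0.0824), knockout a (0.0525) or knockout c (0.186). The list had 3 rises without floxed library a, floxed b or knockout a, and 2 with the shared library kept.

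FGF ligands and receptors moved in both directions, with 3 rises and 3 falls among 12 tested. Beside Fgf8, the receptor Fgfr3 fell by 2.38 log2 (SE 0.54, adjusted p = 0.00165), from 3.59, 2.54 and 3.64 CPM to 0.501, 0.285 and 0.624 CPM. Fgfbp1, a carrier that releases FGFs from the matrix, fell by 1.55 log2 (adjusted p = 1.04e-05). The receptor Fgfr2 had 0.85 log2 (adjusted p = 0.0298), lost without floxed library a (adjusted p = 0.106), floxed b (0.064), knockout b (0.129) or knockout c (0.111). Genes that respond to ERK, the kinase downstream of FGF receptors, were higher in knockout cells. Of 12 tested 8 rose and none fell, beside 11.7% and 7.08% of all tested genes, with a median of 0.56 log2 over 20. When scaled with size factors 8 rose and 1 fell, Dusp5 (-0.60 log2, adjusted p = 0.0404). Spry4, a feedback inhibitor, rose by 2.95 log2 (SE 0.33, adjusted p = 2.21e-08), from 1.99, 4.74 and 1.59 CPM to 15.6, 19.1 and 28.9 CPM. Phlda1 rose by 1.99 log2 (adjusted p = 1.68e-10), from 14.4, 12.9 and 14.5 CPM to 57.7, 42.7 and 70.5 CPM. The immediate early factors Egr1 (1.77 log2), Junb (1.70), Fosl1 (1.74) and Fosl2 (1.21) rose too. With the shared library kept, 3 of the 8 passed, and Egr1 (adjusted p = 0.053), Fosl1 (0.256) and Fosl2 (0.0578) did not. Fos was lost without floxed library a (adjusted p = 0.0874), floxed c (0.0677) or knockout a (0.0701), and Spred2 without floxed a (0.056). Dusp6 and Etv4, further ERK targets, stood at 185 and 264 CPM and at 39.7 and 38.7 CPM without a test.

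Of 25 tested Wnt pathway genes 4 rose and none fell, Lef1 (above) included, beside 11.7% and 7.08% of all tested genes. With the shared library kept 2 rose. Sp5, a direct target, was at 1.76, 1.10 and 1.12 CPM in floxed and 5.21, 5.85 and 5.82 CPM in knockout cells (rise of 1.96 log2, adjusted p = 1.21e-04). The ligand Wnt8a rose by 1.59 log2 (adjusted p = 0.0048, and 0.21 with the shared library kept). Wnt6 rose by 1.68 log2 (adjusted p = 0.00449), lost without floxed library a (adjusted p = 0.0503). Axin2, a common readout of the pathway, was at 4.66, 4.83 and 2.80 CPM and 6.92, 4.14 and 6.65 CPM, overlapping (adjusted p = 0.379). The Notch list had 2 rises and 2 falls among 10 tested, beside the same shares of all tested genes. Hes5, a Notch target of neural progenitors, fell by 2.43 log2 (adjusted p = 8.61e-04), from 1.99, 2.46 and 3.92 CPM to 0.100, 0.285 and 0.832 CPM. The ligand Jag1 rose by 1.06 log2 (adjusted p = 0.00354). The call of Jag2 (0.72 log2) was lost without floxed library b (adjusted p = 0.0787), floxed c (0.153), knockout b (0.0617) or knockout c (0.165). That of Hey1 (-1.13 log2) was lost without floxed a (0.149), floxed c (0.0537), knockout a (0.345) or knockout c (0.0781). The list thus had 1 rise and 1 fall without floxed c or knockout c, and 3 calls without any other library.

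Retinoic acid genes stood lower, with 4 falls and 1 rise among 12 tested, beside 7.08% and 11.7% of all tested genes. Crabp2, which carries retinoic acid to the nucleus, was at 35.7, 31.2 and 30.7 CPM in floxed and 3.11, 4.57 and 3.74 CPM in knockout cells, and fell by 3.04 log2 (SE 0.31, adjusted p = 3.41e-09). Dhrs3, a retinaldehyde reductase, fell by 3.05 log2 (adjusted p = 0.00192), from 4.96, 3.05 and 5.04 CPM to 1, 0.428 and 0 CPM. The receptor Rarg fell by 0.92 log2 (adjusted p = 0.00254, and 0.106 with the shared library kept). Cyp26b1, the enzyme that degrades retinoic acid, rose by 2.77 log2 (adjusted p = 2.73e-04), from 0, 0.169 and 0.187 CPM to 2.31, 2.43 and 1.25 CPM. The call of Rxrg was lost without floxed library a (adjusted p = 0.0511), floxed c (0.0553), knockout a (0.0502) or knockout b (0.15). With the shared library kept, 2 members fell. LIF pathway genes mostly stood higher although LIF had been withdrawn in both groups. Of 7 tested 4 rose and none fell, beside 11.7% and 7.08% of all tested genes. Gadd45g rose by 2.77 log2 (adjusted p = 1.97e-10), the feedback inhibitor Socs3 by 1.23 log2 (adjusted p = 3.64e-04, and 0.0829 with the shared library kept) and the receptor Lifr by 1.11 log2 (adjusted p = 1.32e-04). Of the 4 untested members 1 stood at least 2-fold higher, Stat3 itself (34.6 and 103 CPM), and 1 at least 2-fold lower.

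**Figure D3:**
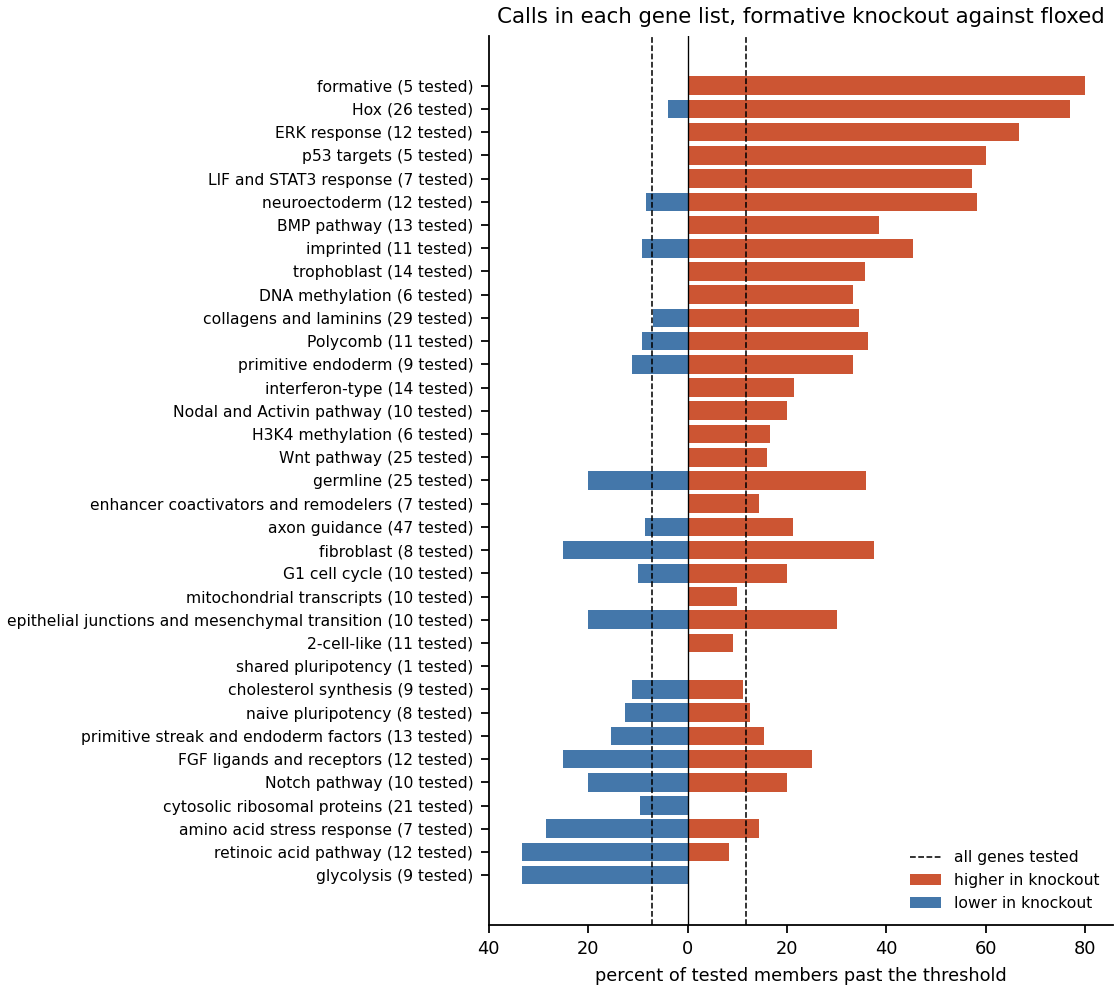
For each of the 35 gene lists, the percent of its tested members that rose (red, to the right) or fell (blue, to the left) in formative knockout cells, with the number tested in brackets. Dashed lines mark all tested genes, 11.7% higher and 7.08% lower, and the Hox list, with 20 of 26 members higher, stands far to the right of its line.

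Hox genes, which set position along the body axis and are silent in early embryos, rose in all 4 clusters. Of 26 tested, 20 rose and 1 fell, beside 11.7% and 7.08% of all tested genes, and the list median was 2.18 log2. Hoxa9 was at 0.305, 1.02 and 0.933 CPM in floxed and 19.8, 25.7 and 25.8 CPM in knockout cells (rise of 4.74 log2, SE 0.43, adjusted p = 3.55e-10). Hoxb13 had 0.229, 0.254 and 1.68 CPM against 14.3, 19.7 and 14.8 CPM (4.5 log2). Hoxa10 had 0.611, 2.29 and 0.280 CPM against 15.5, 15.8 and 17.1 CPM (4.04 log2), and Hoxa5 had 0.687, 0.931 and 1.31 CPM against 11.9, 19.1 and 16.2 CPM (3.77 log2). In each of these the groups were apart by several fold. In the HoxC cluster Hoxc8 rose by 3.60 log2, Hoxc9 by 3.54, Hoxc10 by 3.35, Hoxc6 by 2.91 and Hoxc11 by 2.64 log2. The calls of Hoxc8 (adjusted p = 0.0535) and Hoxc9 (0.0686) were lost with the shared library kept. In the HoxD cluster Hoxd10 rose by 2.32 log2, Hoxd11 by 2.04 and Hoxd13 by 1.56 log2. The exception was Hoxb1, the most anterior HoxB gene in the list, which fell by 2.33 log2 (SE 0.45, adjusted p = 2.19e-04), from 0.993, 0.593 and 0.933 CPM to no count in the 3 knockout libraries. It is a gene that wild-type cells induce by 4.01 log2, and its call was lost with the shared library kept (adjusted p = 0.0979). Hoxd9, Hoxa2 and Hoxc5 were the least stable rises: Hoxd9 was lost without floxed library a (adjusted p = 0.14), knockout a (0.121) or knockout c (0.0818), Hoxa2 without floxed b (0.0708) or knockout c (0.0858), and Hoxc5 without floxed a (0.0639) or knockout b (0.0539). Hox clusters hold overlapping antisense transcripts, from which reads cannot be told apart where counting ignores strand, and no source used here states that setting.

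The Hox genes were also compared with the other experiments of the series. In naive knockout against naive floxed cells 12 of 24 tested rose and none fell (8.51% and 9.64% of all genes tested there), and the median was 1.25 log2. In catalytic-dead cells, set against wild type in the formative state, 2 of 26 rose and 1 fell (5.57% and 3.99% of all genes tested there), and the median was -0.09 log2. The HoxA cluster lies on chromosome 6, where genes over 8 CPM had a median of 0.50 log2 in this comparison, and all 7 HoxA genes stood above 0, from 0.26 log2 for Hoxa7 to 3.10 log2 for Hoxa5. The part of the chromosome in these values was not tested. The difference between the knockout and the catalytic-dead effect passed the threshold for 16 of 26, higher for 15 and lower for 1 (7.9% and 6.92% of all genes). The difference between states passed for 4 of 24, 3 of them higher in formative cells (5.81% of all genes higher and 3.45% lower).

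**Figure D4:**
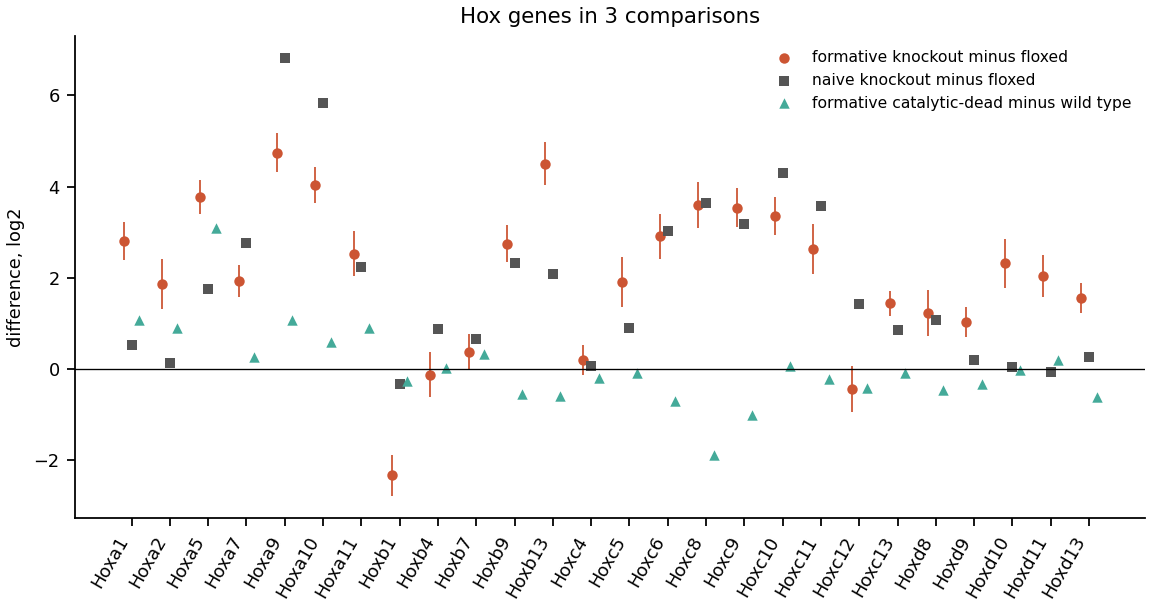
Differences (log2) of 26 Hox genes in formative knockout against floxed cells (red circles, with bars of 1 SE), naive knockout against floxed cells (grey squares) and formative catalytic-dead against wild-type cells (green triangles). Most circles lie well above 0, while the triangles scatter about a median of -0.09 log2.

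Neuroectoderm genes stood higher, with 7 rises and 1 fall (Hes5, above) among 12 tested, beside 11.7% and 7.08% of all tested genes. Zic1, a zinc finger factor of the neural plate, was at 1.30, 2.46 and 1.31 CPM in floxed and 20.5, 21.6 and 19.5 CPM in knockout cells (rise of 3.51 log2, SE 0.32, adjusted p = 2.90e-10). Sox1, the earliest neural marker, was at 14.7, 13.2 and 12.8 CPM and 42.1, 44.8 and 52.2 CPM (rise of 1.76 log2, adjusted p = 1.12e-09). The forebrain factor Six3 rose by 2.27 log2 (adjusted p = 0.00241). Pax6 did not pass, with 3.97, 5.17 and 4.76 CPM against 3.51, 4.14 and 2.91 CPM (adjusted p = 0.456). Pax3 was lost without floxed library b (adjusted p = 0.0525), floxed c (0.0761) or knockout a (0.0699), and Lhx2 without floxed a (0.146), b (0.0897) or c (0.0531) or knockout a (0.0936) or c (0.199), while 4 rises passed with the shared library kept. The summed level of the tested members was 47.9 to 55.6 CPM in floxed and 113 to 141 CPM in knockout libraries. With the 5 untested members the group levels summed to 464 CPM in floxed and 634 CPM in knockout cells. Hes3, Pax2, Fabp7, Lhx5 and Neurog2 have no row in the table.

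Primitive streak factors went the other way in sum, 50.9 to 64.0 CPM in floxed and 30.8 to 38.0 CPM in knockout libraries over 13 tested members, of which 2 rose and 2 fell. The sum follows Fgf8, a member of the list. T (brachyury, chromosome 17) was at 1.83, 2.29 and 2.43 CPM and 0.301, 0.285 and 0.832 CPM (difference of -1.90 log2, adjusted p = 0.0179), and its call was lost without knockout library a (adjusted p = 0.0923) or knockout b (0.09). Foxa1, a pioneer factor of endoderm, rose by 2.25 log2 (adjusted p = 0.00123). Foxa2 was lost without floxed library a (adjusted p = 0.0554), floxed b (0.0991) or knockout a (0.0595). Eomes, Mixl1 and Gsc did not pass (adjusted p = 0.3, 0.494 and 0.263). Sox17, Mesp1, Lhx1, Cer1 and Msgn1 have no row in the table. Of the primitive endoderm list 3 of 9 tested rose and 1 fell, beside 11.7% and 7.08% of all tested genes. The sum over the tested members was 34.4 to 39.8 CPM in floxed and 70.4 to 88.4 CPM in knockout libraries. With the 4 untested members the group levels summed to 851 CPM in floxed and 835 CPM in knockout cells. The list's rises were the basement membrane collagens Col4a1 (1.78 log2, adjusted p = 3.34e-08) and Col4a2 (1.72 log2, adjusted p = 6.41e-06) and the yolk sac protein Afp. Afp was at 0, 0.339 and 0 CPM against 2.41, 2.57 and 3.74 CPM. The defining factors Gata4 and Gata6 did not pass (adjusted p = 0.0693 and 0.126), except Gata4 without knockout library b (0.0486).

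Of the trophoblast list 5 of 14 tested rose and none fell, beside 11.7% and 7.08% of all tested genes. The tested members summed to 52.9 to 71.8 CPM in floxed and 68.3 to 84.6 CPM in knockout libraries. With the 1 untested member the group levels summed to 119 CPM in floxed and 112 CPM in knockout cells. Cdx2, a factor that starts the lineage, was at 0.153, 0.0847 and 0.280 CPM and 3.81, 0.999 and 2.91 CPM (rise of 2.74 log2, adjusted p = 0.00499, and 0.107 with the shared library kept). The placental gene Plac1 rose by 2.12 log2 (adjusted p = 0.00375). Gata2 was lost without floxed library a (adjusted p = 0.0596) or knockout c (0.0586), Gata3 without floxed a (0.0885), knockout b (0.0509) or knockout c (0.0613), and Krt19 without floxed b (0.0808) or knockout c (0.0675). The list had 3 rises without floxed library a and 2 without knockout library c. The fibroblast list had 3 rises and 2 falls among 8 tested members, which summed to 29.0 to 35.7 and 33.3 to 38.5 CPM. With the 2 untested members, Acta2 (above) among them, the group levels summed to 86 CPM in floxed and 737 CPM in knockout cells. Col1a2 rose by 2.71 log2 (adjusted p = 6.58e-05) and Twist1, a mesenchymal factor, by 1.43 log2 (adjusted p = 3.39e-05), while Thy1 (above) and the matrix proteoglycan Dcn fell. Col1a1 (1.43 log2) was lost without floxed library a (adjusted p = 0.186), floxed c (0.0539), knockout a (0.0566) or knockout c (0.0598). Dcn fell by 2.42 log2 (SE 0.35, adjusted p = 3.60e-06), from 12.3, 9.40 and 9.80 CPM to 2.11, 1.43 and 1.87 CPM. None of the listed markers of other cell types that have a row in the table was at 0 in all 6 libraries. Without a row were Sox7, Sox17, Pdgfra, Cubn, Hnf4a and Ttr of the primitive endoderm list and Elf5 of the trophoblast list. Col3a1, Col6a1, Lum, Postn, Prrx1 and Twist2 of the fibroblast list had no row either. The part of such cell types in the other results was not tested.

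Junction and mesenchymal genes showed a mixed picture. Cdh2 (N-cadherin) rose by 2.96 log2 (SE 0.45, adjusted p = 7.15e-06), from 2.06, 2.12 and 0.280 CPM to 9.12, 7.85 and 15.8 CPM. The repressor Zeb2 rose by 1.85 log2 (adjusted p = 1.56e-05), from 3.82, 2.54 and 2.43 CPM to 10.4, 11.1 and 11 CPM. The tight junction gene Cldn3 fell by 1.91 log2 (adjusted p = 3.25e-05), from 19.5, 12.4 and 20.1 CPM to 5.11, 3 and 5.41 CPM. Among untested members Cdh1 (E-cadherin) stood at 743 and 387 CPM, Vim (vimentin) at 54.2 and 378 CPM and Crb3, an apical polarity gene on chromosome 17, at 54.4 and 7.16 CPM. The 10 tested members gave 3 rises and 2 falls. Snai1 was lost without floxed library c (adjusted p = 0.0535) or knockout b (0.0524), and Cdh3 without floxed a (0.0866), knockout a (0.0799), b (0.0771) or c (0.0536). Of 29 tested collagen and laminin genes 10 rose and 2 fell, with a median of 0.01 log2 over 33. Beside Col8a1 the largest were Col5a2, from 0, 0.0847 and 0.560 CPM to 7.02, 7.42 and 7.49 CPM (4.40 log2, adjusted p = 7.04e-08), and Col12a1, from 0, 0.0847 and 0 CPM to 1.6, 1.86 and 2.08 CPM (3.15 log2). Col2a1, the cartilage collagen, fell by 1.76 log2 (adjusted p = 8.84e-04), and Col6a5 by 1.95 log2 (adjusted p = 0.00301). Without floxed library c Col6a5 fell below the filter and was not tested, and the list had 8 rises and 1 fall.

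Of 47 tested axon guidance genes 10 rose and 4 fell, beside 11.7% and 7.08% of all tested genes. The semaphorin receptor Nrp2 was at 2.14, 2.12 and 2.52 CPM in floxed and 28.7, 22.7 and 29.5 CPM in knockout cells (rise of 3.46 log2, SE 0.27, adjusted p = 1.11e-11). Its paralog Nrp1 rose by 2.66 log2 (adjusted p = 1.32e-04) and Robo2, a receptor for Slit proteins, by 3.38 log2 (adjusted p = 6.75e-06). Epha2 rose by 1.97 log2 (adjusted p = 3.18e-06, and 0.187 with the shared library kept). The ligand Sema3f fell by 3.2 log2 (adjusted p = 2.87e-05), from 5.12, 2.96 and 2.80 CPM to 0.301, 0.428 and 0 CPM, and Epha8 by 2.26 log2 (adjusted p = 0.00154). Without knockout library a the list had 2 falls.

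Germline genes changed in both directions, with 9 rises and 5 falls among 25 tested. Nlrp4c rose by 3.14 log2 (adjusted p = 5.85e-09) and Rhox9 by 3.10 log2 (adjusted p = 2.36e-11), both members of families with close copies. Piwil2, a partner of piRNAs, rose by 1.77 log2 (adjusted p = 5.77e-06). Mael, which acts in the same pathway, fell by 2.41 log2 (adjusted p = 2.96e-06), from 10.9, 17.3 and 14.7 CPM to 3.81, 1.71 and 2.29 CPM. Sycp3, a protein of meiotic chromosomes, fell by 2.77 log2 (adjusted p = 0.00239), from 13.8, 8.98 and 5.13 CPM to 0.702, 1.43 and 1.25 CPM. Without knockout library c the list had 3 falls, and with the shared library kept 6 rises and 2 falls. Imprinted genes, expressed from 1 parental copy, had 5 rises and 1 fall among 11 tested, beside 11.7% and 7.08% of all tested genes. The paternally expressed Sgce (2.42 log2), Nap1l5 (2.10), Nnat (2.05), Mest (1.44) and Dlk1 (1.04) rose. The maternally expressed growth inhibitor Cdkn1c was at 40.7, 32.9 and 26.6 CPM and 12.5, 5.71 and 11 CPM, and fell by 1.81 log2 (adjusted p = 9.83e-06). Among untested members Peg10 stood at 12.6 and 97.1 CPM, Phlda2 at 145 and 20.9 CPM and Grb10 at 197 and 54.5 CPM.

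Chromatin regulators gave few calls, most of their members being untested. Of 6 tested genes for H3K4 methylation and demethylation 1 rose and none fell. It was Ncoa6, a subunit of the MLL3 and MLL4 complexes, from 29.0, 17.5 and 22 CPM to 38.2, 42.1 and 42.4 CPM (0.86 log2, adjusted p = 0.00112). The demethylase Kdm6a, which shares these complexes, stood at 47.9 and 54.7 CPM without a test. Of 11 tested Polycomb genes 4 rose and 1 fell. Bmi1, a core subunit of PRC1, was at 10.5, 12.7 and 10.5 CPM and 45.4, 57.4 and 43.9 CPM (rise of 2.09 log2, SE 0.19, adjusted p = 1.52e-10). Cbx8, which reads H3K27 methylation, rose by 2.09 log2 (adjusted p = 1.51e-05) and Pcgf5 by 1.07 log2 (adjusted p = 4.18e-04). The call of Ezh1, the 1 fall, was lost without floxed library a (adjusted p = 0.0557), floxed c (0.0701) or knockout c (0.0704). Ezh2 stood at 217 and 239 CPM. Of 6 DNA methylation genes 2 rose, the dioxygenase Tet3 by 1.28 log2 (adjusted p = 6.78e-04) and Mbd1, whose call was lost without floxed library a (adjusted p = 0.056), floxed b (0.0571) or knockout a (0.0859). Dnmt3l, the cofactor of the de novo methyltransferases, stood at 210 and 72.0 CPM without a test. Of 7 enhancer coactivators and remodelers 1 rose, Med23, lost without floxed library b (adjusted p = 0.074), knockout b (0.124) or knockout c (0.063).

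Several cell cycle inhibitors and p53 targets stood higher, Cdkn1c and Pmaip1 excepted. Cdkn2b (p15) was at 0.764, 0.847 and 0.467 CPM in floxed and 12.3, 14 and 8.32 CPM in knockout cells (rise of 3.71 log2, SE 0.43, adjusted p = 4.85e-08). Its neighbour Cdkn2a stood at 17.9 and 130 CPM and Cdkn1a (p21, chromosome 17) at 99.4 and 336 CPM, both untested. Of the 10 tested G1 genes 2 rose and 1 fell, the fall being Cdkn1c. The second rise, E2f3, was lost without floxed library b (adjusted p = 0.158), floxed c (0.0536), knockout a (0.0788) or knockout c (0.202). Of 5 tested p53 targets 3 rose and none fell, beside 11.7% and 7.08% of all tested genes. The death receptor Fas was at 0.535, 0 and 0.840 CPM and 5.31, 4.71 and 2.91 CPM (rise of 3.02 log2, adjusted p = 7.15e-05). The exonuclease gene Aen rose by 0.74 log2 (adjusted p = 0.00126) and Pidd1 by 0.94 log2 (adjusted p = 0.00746, and 0.0546 with the shared library kept). Of 16 untested members 5 stood at least 2-fold higher, among them Mdm2 (169 and 407 CPM) and Eda2r (13.3 and 103 CPM), and 1 at least 2-fold lower, Pmaip1.

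Metabolic and stress lists gave fewer calls. Of 9 tested glycolysis genes 3 fell and none rose, beside 7.08% and 11.7% of all tested genes. The 3 that fell are tissue-restricted isoforms. Eno3 (muscle enolase) fell by 2.08 log2 (SE 0.23, adjusted p = 1.94e-08), from 32.8, 38.2 and 43.4 CPM to 7.92, 12.6 and 6.86 CPM. Eno2 (neuronal enolase) fell by 1.85 log2 (adjusted p = 0.00467) and Aldoc by 1.72 log2 (adjusted p = 4.5e-06). Of 7 tested amino acid stress genes 2 fell and 1 rose. Ddit3 (CHOP) fell by 1.97 log2 (adjusted p = 3.39e-05), from 11, 16.9 and 16.6 CPM to 4.41, 4.43 and 2.29 CPM. Vldlr fell by 2 log2 (adjusted p = 1.90e-04), and the cystine transporter Slc7a11 rose from 2.98, 1.78 and 2.33 CPM to 7.42, 6.99 and 4.58 CPM (adjusted p = 0.00552). Of 9 tested cholesterol genes 1 rose (Stard4) and 1 fell (Fdps). Stard4 was lost without floxed library a (adjusted p = 0.0547) or c (0.0539), and Fdps without floxed b (0.136), knockout a (0.0862), b (0.0791) or c (0.0777). Interferon-type genes gave 3 rises among 14 tested and no fall. Gbp2 rose by 1.70 log2 (adjusted p = 3.65e-06), while Tap1 was lost without knockout library a (adjusted p = 0.0525) or c (0.0723). With the shared library kept 1 passed. Of 11 tested 2-cell-like genes 1 rose, Gm8300, lost without floxed library a (0.217), floxed c (0.12), knockout b (0.257) or knockout c (0.0522).

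Chromosomes 14 and 17 stood apart. Among genes over 8 CPM in every group, the median knockout minus floxed difference was -0.21 log2 on chromosome 14 (231 genes) and -0.21 log2 on chromosome 17 (349 genes). On the 18 other chromosomes compared it lay between 0.06 and 0.18 log2. Over all tested genes, low ones included, the medians were -0.05 log2 on chromosome 14 and -0.20 log2 on chromosome 17. The same 2 chromosomes were low in naive cells, at -0.28 and -0.29 log2 against 0.03 to 0.13 log2 elsewhere. Against formative wild-type cells the knockout medians on chromosomes 14 and 17 were -0.16 and -0.24 log2, and the floxed medians 0.02 and -0.02 log2. In windows of 20 Mb every median on both chromosomes was below 0, from -0.39 to -0.04 log2 on chromosome 14 and from -0.25 to -0.12 log2 on chromosome 17. On chromosome 17 the share of tested genes that fell was 15.8% (84 of 530), and on the others compared, chromosome 14 aside, 3.8% to 8.9%. Outside these 2 chromosomes 1294 genes rose and 692 fell among 10565 tested. Named genes on chromosome 17 include H2-Q2, T, Crb3, Cdkn1a and Six3. Those on chromosome 14 include Bmp4, Piwil2, Otx2, Enox1, Stmn4 and Fitm1. These are not full lists, and the part of the chromosomes in the values of such genes was not tested.

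**Figure D5:**
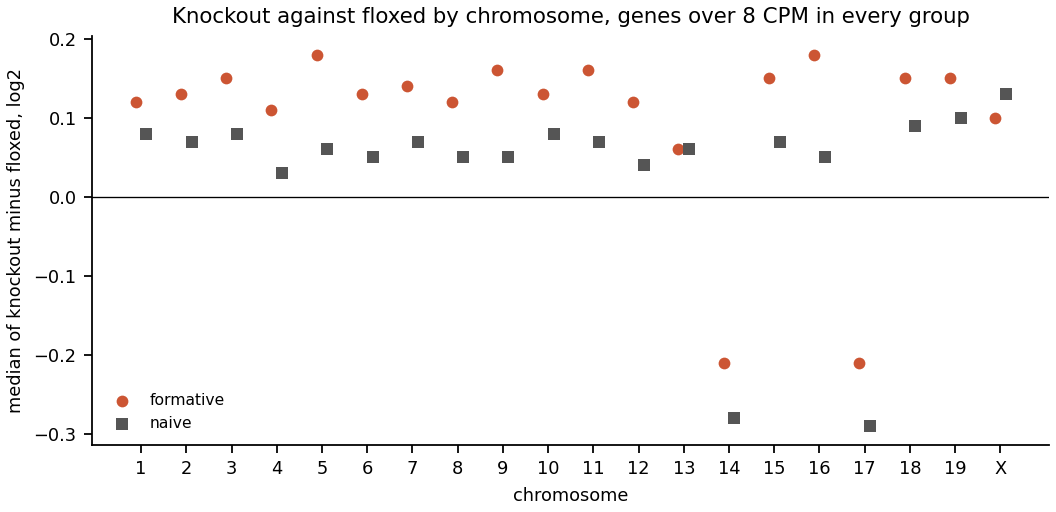
Median knockout minus floxed difference (log2) per chromosome for genes over 8 CPM in every group, in formative (red circles) and naive cells (grey squares). Chromosomes 14 and 17 lie at or below -0.21 log2 in both states, and the other chromosomes shown lie above 0.

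The same genotypes were compared in naive cells to see where the formative state differs. There 1009 of 11855 tested genes rose (8.51%) and 1143 fell (9.64%). Of 1205 genes that rose in formative cells and were tested in both states, 345 also rose in naive cells (28.6%, and 38.1% of the naive rises) and 56 fell. Of 784 that fell in formative cells, 165 also fell in naive cells (21.0%, and 16.2% of the naive falls) and 26 rose. Among all 10942 genes tested in both, 8.28% rose and 9.29% fell in naive cells. The 2 comparisons share no library. Tex13b had nearly the same rise in both states (5.26 and 5.06 log2), as did Afp (3.43 and 3.16) and Fas (3.02 and 3.05), and Pla2g10 the same fall (-3.44 and -3.56). For these 4 the difference between states did not pass (adjusted p = 0.905, 0.865, 0.988 and 0.919).

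The difference between states itself passed the threshold for 636 genes in the higher direction (5.81%) and 377 in the lower (3.45%). Cav1 rose in formative cells by 6.07 log2 and differed in naive cells by 1.24 log2 (adjusted p = 0.0959 there), a difference between states of 4.84 log2 (SE 0.65, adjusted p = 3.16e-06). Trim67 fell in formative cells by 4.65 log2 and differed by 0.24 log2 in naive cells, so that the states differed by -4.89 log2 (SE 0.68, adjusted p = 5.77e-06). Other genes had opposite calls in the states. Spry4 rose by 2.95 log2 in formative and fell by 2.69 log2 in naive cells (difference of 5.63 log2, SE 0.71, adjusted p = 1.13e-06). Serpinb9b (6.03 log2), Spink1 (5.53) and Kdr, the VEGF receptor (5.42), likewise rose in formative and fell in naive cells. Enox1 had the largest such difference, 6.25 log2 (adjusted p = 1.73e-07), though its formative rise of 1.83 log2 was lost without floxed library a (adjusted p = 0.0566). In the other direction Stmn4, a neuronal tubulin-binding protein, fell by 1.23 log2 in formative and rose by 3.45 log2 in naive cells (difference of -4.68 log2, adjusted p = 2.56e-07). Cpne8 (-5.95 log2), Dkk1 (-4.25) and B3gnt3 (-4.23) rose in naive cells and did not pass in formative cells. Hhip (-5.10 log2) rose in naive cells, and its formative fall was lost without floxed library a (adjusted p = 0.115), knockout a (0.0901) or knockout c (0.301). Without floxed library b, Cpne8 also passed in formative cells, as a fall (adjusted p = 0.00713). Foxd3 rose in formative and fell by 1.72 log2 in naive cells, and the states differed (adjusted p = 4.70e-08).

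Formative catalytic-dead cells are named for MLL3 and MLL4 proteins that lack methyltransferase activity. Their comparison with wild type changes both proteins, starting from cells with both intact. The knockout comparison removes only MLL4, from cells that already lack MLL3, so the 2 comparisons also differ in MLL3. It gave 662 rises among 11876 tested genes (5.57%) and 474 falls (3.99%), or 522 and 593 when scaled with size factors. Chromosome 6 stood apart here: its genes over 8 CPM had a median of 0.50 log2, against -0.12 to 0.10 log2 on the other 19 chromosomes compared, and 119 of its 615 tested genes rose and 6 fell. Without chromosome 6 there were 543 rises and 468 falls. Of 1299 genes that rose in knockout cells and were tested in both, 113 also rose in catalytic-dead cells (8.70%, and 18.6% of the catalytic-dead rises) and 66 fell. Of 801 that fell, 77 also fell (9.61%, and 17.3% of those falls) and 81 rose. Among all 11282 genes tested in both, 5.38% rose and 3.94% fell in catalytic-dead cells. The effects differed between the 2 comparisons for 891 genes in the higher direction (7.9%) and 781 in the lower (6.92%), or 865 and 714 without chromosome 6. Each comparison has its own control line and the catalytic-dead line differs from the knockout line in more than catalysis, so line and mutation cannot be told apart.

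Ccn4 rose by 5.94 log2 in knockout cells and differed by 0.26 log2 in catalytic-dead cells, a difference of 5.68 log2 (SE 0.66, adjusted p = 1.56e-07). Tex13b (5.41 log2), Hoxc8 (5.49) and the lncRNA gene AI662270 (5.22) also rose in knockout cells, without a rise in catalytic-dead cells. Kcnj3, a potassium channel, had opposite calls: it rose in knockout cells by 2.43 log2, from 2.75, 3.73 and 2.52 CPM to 17.1, 17.3 and 16.2 CPM, and fell by 3.62 log2 in catalytic-dead cells (difference of 6.06 log2, adjusted p = 4.53e-12). Magel2, an imprinted gene, rose by 4.38 log2 and fell by 1.6 log2 (difference of 5.98 log2, adjusted p = 1.20e-11). In the lower direction Dcn fell by 2.42 log2 in knockout and rose by 2.41 log2 in catalytic-dead cells (difference of -4.83 log2, adjusted p = 5.66e-09). Platr11 (-5.27 log2) and Zc3h6 (-4.81) had the same opposite calls. Gstt1 (-4.71 log2) and Fitm1 (-4.99) fell in knockout cells and did not pass in catalytic-dead cells. Il10 had -6.60 log2 (adjusted p = 2.94e-08) through its rise of 5.05 log2 in catalytic-dead cells, and its own knockout fall was lost without floxed library a (adjusted p = 0.0656), floxed c (0.17), knockout a (0.247) or knockout b (0.0964). The calls of Hoxc8 (adjusted p = 0.0535), AI662270 (0.0592) and Il10 (0.883) in knockout cells were lost with the shared library kept. Mup6 had almost the same difference in both comparisons (-4.12 and -4.15 log2), and Fgf8 fell in both, by 4.97 and 1.64 log2, with a difference between them of -3.33 log2 (adjusted p = 1.79e-05).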

How the data were processed

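Total RNA (200 ng a sample) was made into 3' tag libraries (QuantSeq, 50-base single-end reads), per the labels' protocols. The submitters' processing notes name cutadapt 2.5, STAR, featureCounts, Subread 1.6.4, DESeq2 1.34.0 and mm10; no source used here states the strand setting. The authors deposited log2 CPM values averaged per group, 8 columns in all, with a prior count (2, in proportion to each library's size) added first. The whole counts of 23 libraries were recovered from these means, using that a mean of few whole counts takes only certain values: 72.1% of 16617 genes in floxed and 72.9% in knockout cells. The library sizes came out whole within 0.0028 counts. Genes without recovered counts were given values only. The library that the knockout column shares with the catalytic-dead column was left out of the knockout group.

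The test was limma 3.58.1 (R 4.3.3) with a mean-variance trend, in 1 model of 8 groups with weights per gene and group (lowess span 0.3). Genes entered with at least the CPM that equals 10 counts at the median library size in 3 libraries or more, and the threshold was a Benjamini-Hochberg adjusted p of 0.05. Each library left out in turn, other scalings, priors, weights, filters and sample sets were alternatives. Counts were simulated for this comparison (16617 genes, 10810 tested) with 200 genes of moderate level changed. These are fewer than the calls in the data, so the adjusted threshold was stricter there. In the simulation 92 genes were called, of which 4 had not been changed. Of the tested changes 14.3% of 1.5-fold, 63.6% of 2-fold, 100.0% of 4-fold and 97.0% of 8-fold ones were recovered. Genes were matched to GENCODE vM21 (16606 genes) and promoters to RefSeq (11420 genes).

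The genes named are the 12 largest rises and falls whose groups do not overlap, list members past the threshold or well known, the 8 largest untested differences each way over 32 CPM, the targeted genes, and the 6 largest differences each way between states and from the catalytic-dead effect. A few genes this rule covers are not reported here. The comparison and the 35 gene lists were chosen with earlier results of these data known, so list counts are descriptions.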

Additional observations from a re-analysis of the deposited data

Results flagged for a closer look

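For 12 genes the knockout effect differed between the formative and the naive state by the limma test of that difference, these being the largest by the naming rule. It was higher in formative cells for Enox1 (6.25 log2), Serpinb9b (6.03), Spry4 (5.63), Spink1 (5.53), Kdr (5.42) and Cav1 (4.84). It was lower for Cpne8 (-5.95), Hhip (-5.10), Trim67 (-4.89), Stmn4 (-4.68), Dkk1 (-4.25) and B3gnt3 (-4.23). The adjusted p ran from 1.02e-07 for Serpinb9b to 0.00164 for Dkk1. Enox1 went from a formative difference of 1.83 log2 to a naive one of -4.43 log2, Serpinb9b from 3.60 to -2.42, and Kdr from 2.82 to -2.60. Cpne8 stood at -1.12 log2 in formative and 4.83 log2 in naive cells, and Dkk1, a secreted Wnt antagonist, at 0.44 and 4.69 log2.

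For another 12 genes the formative knockout effect differed from the formative catalytic-dead effect by the same kind of test. It was higher for Kcnj3 (6.06 log2), Magel2 (5.98), Ccn4 (5.68), Hoxc8 (5.49), Tex13b (5.41) and AI662270 (5.22). It was lower for Il10 (-6.60), Platr11 (-5.27), Fitm1 (-4.99), Dcn (-4.83), Zc3h6 (-4.81) and Gstt1 (-4.71). The adjusted p ran from 4.53e-12 for Kcnj3 to 2.17e-05 for Fitm1. The test for a single outlying library in a group was not applied, since it is not defined here for groups of 3.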

How the results depend on the processing

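The 1344 rises and 813 falls became 729 and 484 when the shared library was kept in the knockout group, and 806 rises when a difference of at least 1 log2 was also required. Leaving out 1 library gave 1008 to 1124 rises and 530 to 714 falls, with 530 falls without knockout library a and 533 without knockout library b. For the difference between states the same fits gave 495 to 851 higher and 279 to 374 lower. The remaining alternatives run (no weights, the contrast's groups alone, size factors, a prior count of 0.5, no filter, a stricter filter of 30 counts, and, chosen after seeing the data, chromosomes 14 and 17 or chromosome 6 left out and size factors in the other comparisons) kept these counts within 1.5 times. Size factors moved the medians of the classes that wild-type cells induced, repressed or did not change past the threshold from -0.05, 0.13 and 0.06 log2 to -0.12, 0.06 and -0.01 log2. No call of a named gene reversed its direction in any of them, and 50 calls were lost with the shared library kept, against 0 to 32 in the other fits. Small differences that did not pass could change sign, as for Tbx3 (0.05 log2 as reported and -0.03 log2 with size factors). No paired analysis was possible because the deposited columns carry no replicate numbers. Depth limits genes of few counts: the floor of 3 counts was 0.0842 CPM over the floxed and 0.138 CPM over the knockout group. In the simulation, where only 200 genes were changed, 1.5-fold changes were mostly missed.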

Other observations

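Processed pseudogenes went mostly 1 way: of 750 tested 3 rose and 67 fell, beside 1245 rises and 625 falls among 8566 protein-coding genes. Short tags can be shared between a pseudogene and its parent gene, so these values are uncertain. Antisense genes gave 18 rises and 27 falls among 408 tested, and lincRNAs 28 and 45 among 494.

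Cytosolic ribosomal protein genes had a list median of -0.39 log2 over 75 genes, with 2 falls and no rise among 21 tested and 1 fall in most fits that left out a library. In naive cells the list median was 0.01 log2. Among the 54 untested members Rpl37 stood at 3302 CPM in floxed and 1712 CPM in knockout cells and Rpl34 at 2737 and 1436 CPM. Rps10 (2670 and 1302 CPM) and Rps18 (1050 and 494 CPM) lie on chromosome 17. Of 10 tested genes for mitochondrial transcripts 1 rose, and none rose in several fits that left out a library.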
